A study of Saccharomyces cerevisiae with 16 samples.

Results

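Cryptic unstable transcripts (CUTs) are short noncoding RNAs of budding yeast. All 925 features of the deposited expression table whose identifier starts with CUT followed by a digit are described here, out of 11997 features other than spike-ins. Of these, 904 had a mean of at least 0.00364 reads per nucleotide over all libraries and were tested, among 11606 tested features in all. The other 21 lay below that mean, and no CUT was listed at 0 in every library.

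CUTs are made by RNA polymerase II, mostly from the nucleosome-free regions at gene promoters, where many run divergently from an mRNA. The Nrd1-Nab3-Sen1 complex ends them early, the TRAMP complex adds a short oligo(A) tail, and the nuclear exosome with its catalytic subunit Rrp6 degrades them, so that they are scarce where the exosome works. RNAs that escape to the cytoplasm can be decapped and degraded by the 5′-to-3′ exonuclease Xrn1, and translated noncoding RNAs can be targets of nonsense-mediated decay, which needs the helicase Upf1.

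The study addressed how a global block of translation initiation, caused by loss of glucose, affects cytoplasmic noncoding RNAs, and used strand-specific total RNA sequencing of 16 libraries in 8 groups of 2. Every strain was MATa his3Δ1 leu2Δ0 met15Δ0 ura3Δ0, so each control also carried these auxotrophies, and no genotype names an exosome mutation. The groups were xrn1Δ::kanMX4 cells starved or in glucose, upf1Δ::kanMX4 cells starved or in glucose, wild-type cells given cycloheximide while starved or in glucose, and wild-type cells given DMSO while starved or in glucose. Starvation was a 16 min shift to CSM medium in which glycerol and ethanol took the place of glucose, and controls stayed in glucose for as long. Cycloheximide, which blocks translation elongation, was given at 100 µg/ml, and the labels name neither its duration nor a solvent for the mutants. A fixed amount of ERCC spike-in went into 1 µg of total RNA from each sample before ribosomal RNA was removed.

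The deposited values are reads per nucleotide of each feature, and the scaling between libraries is not stated. The summed spike-in value was nearly equal in all 16 libraries, at 305.3 to 317.3. The median ratio of the spike-ins to their geometric mean over libraries was 1.0047 in every library, so the deposited values are already level on the spike-ins. The same ratio over protein-coding genes ran from 0.4027 to 2.584. Depth, estimated from the step between low values by a rule settled after values were seen, was 7040000 to 36600000 reads on open reading frames (ORFs), and the median CUT had 9.78 to 74.4 reads per kb. The shallowest libraries were those of starved cells with cycloheximide, which listed 95 and 104 CUTs at 0, against 3 to 33 elsewhere. UPF1 stood at 0.0141 and 0.0152 reads per nucleotide in upf1 cells in glucose, against 0.615 and 0.582 in wild type. XRN1 stood at 0.0858 and 0.0693 in xrn1 cells in glucose, against 1.14 and 1.19 in wild type. Column headers carry a code that is the same for the 4 cycloheximide libraries and differs from that of the other 12. What it marks is not stated, so it cannot be told apart from the drug. Since the spike-in went into a fixed 1 µg of total RNA, values scaled to it are relative to total RNA. RNA per cell cannot be read from them.

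Most CUTs were sparse. The median of their means over 16 libraries was 0.0217 reads per nucleotide, with 5th and 95th percentiles of 0.00506 and 0.149, and 89 of 925 reached 0.1. By group, the median CUT stood at 0.0395 reads per nucleotide in starved xrn1 cells, 0.0375 in xrn1 cells in glucose, 0.00953 in starved upf1 cells, 0.0137 in upf1 cells in glucose, 0.0110 in starved wild type with cycloheximide, 0.0358 in wild type with cycloheximide in glucose, 0.00811 in starved wild type and 0.0105 in wild type in glucose. Only the groups without Xrn1, and the drug group in glucose, stood clear of the rest by this measure. The summed level of all CUTs was 102 and 99.6 in starved xrn1 libraries and 34.7 and 35.3 in wild-type libraries in glucose.

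**Figure D1:**
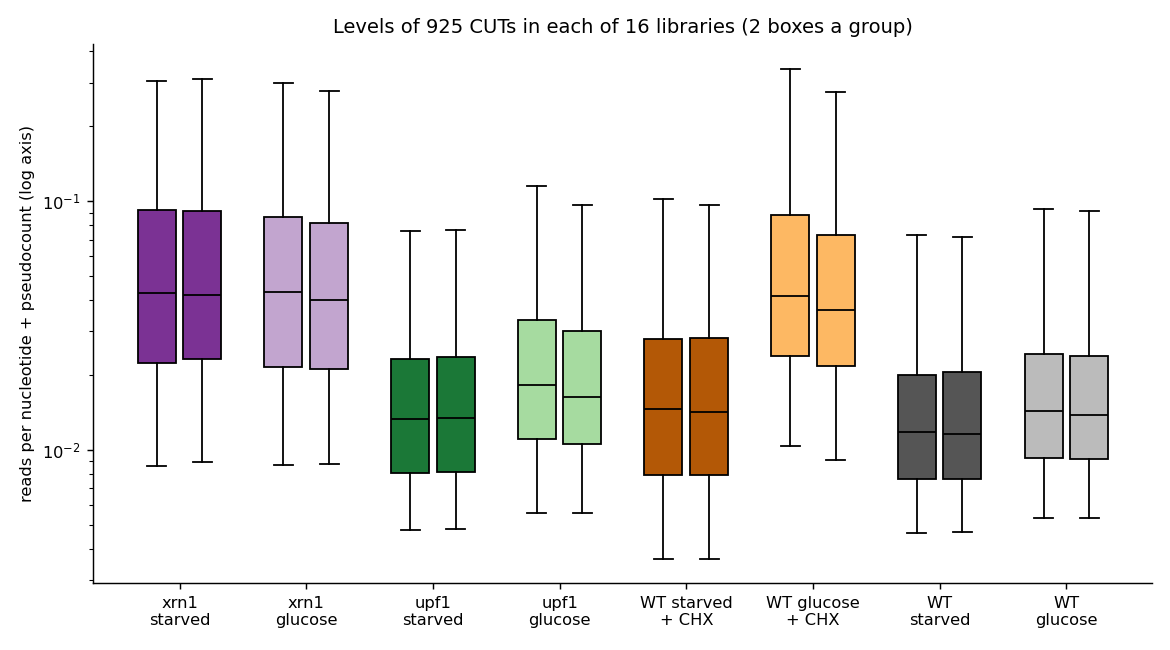
Level of 925 CUTs in each library, as reads per nucleotide plus the pseudocount on a log axis. Each box spans the quartiles with the median as a line, whiskers run to the 5th and 95th percentiles, and the 2 boxes of a group are its 2 libraries; both xrn1 groups and the cycloheximide group in glucose stand highest, with group medians of 0.0375 to 0.0395 and 0.0358.

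The 6 most abundant CUTs held 22.2 to 38.2% of the summed CUT signal by group, and 4 of them are listed beside an abundant gene or a snoRNA gene. The table gives no coordinates for CUTs, but its rows run in genome order, so each CUT is placed by the ORFs listed on either side, with ORF coordinates from RefSeq for build R64. CUT484 had the highest mean, 4.6 reads per nucleotide, and is listed on chromosome IV between RPL13A (308424 to 309388) and RPP1A (309802 to 310122), both genes of ribosomal proteins. Its level was 10.5 and 9.90 in starved xrn1 cells, 8.08 and 8.13 in xrn1 cells in glucose, 2.35 and 2.28 in starved upf1 cells, 3.66 and 3.36 in upf1 cells in glucose, 0.915 and 0.870 in starved wild type with cycloheximide, 5.31 and 4.30 with cycloheximide in glucose, 2.69 and 2.78 in starved wild type, and 3.95 and 4.45 in wild type in glucose. RPP1A stood at 5.22 to 7.09 times CUT484 in every library, so the pair moved together over this whole range.

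CUT122 had a mean of 3.43 reads per nucleotide and is listed on chromosome VI next to HSP12 (107256 to 107585), a stress-induced membrane protein gene. HSP12 stood at 3.24 to 6.16 times CUT122 across the libraries. CUT122 had 2.45 and 2.09 reads per nucleotide in starved wild type, against 0.882 and 1.07 in wild type in glucose, which gave 1.22 ± 0.18 on the log2 scale (SE; limma adjusted p = 0.00013). CUT496, listed beside the triose phosphate isomerase gene TPI1 on chromosome IV, had a mean of 1.79 and fell by 0.58 ± 0.12 in starved wild type (limma adjusted p = 0.00128), where TPI1 changed by -0.60. CUT567, listed after the C/D box snoRNA gene snR52 on chromosome V, had a mean of 2.26. It had 0.775 and 0.907 reads per nucleotide in starved wild type, against 3.06 and 2.58 in wild type in glucose. Its change was -1.74 ± 0.13 on the log2 scale (limma adjusted p = 4.2e-07), and the neighbouring snR52 changed by -1.5.

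The remaining pair, CUT015 and CUT155, were the least variable across the libraries of the 494 CUTs with a mean of at least 0.02 reads per nucleotide, with SDs of 0.198 and 0.253 on the log2 scale. CUT015 is listed next to a valine tRNA gene, tV(UAC)B, on chromosome II and lay between 1.35 and 2.27 reads per nucleotide in all 16 libraries. CUT155, listed on chromosome VII before the asparagine synthetase gene ASN2 (739944 to 741662), lay between 0.899 and 1.62. It kept its ratio to features far away in the table, with an SD of the log2 ratio of 0.0703 to the snoRNA snR4 and 0.0939 to the spliceosomal RNA snR7-L. In xrn1 cells in glucose CUT015 changed by -0.41 ± 0.13 (limma adjusted p = 0.0106), and CUT155 by -0.01 ± 0.13 (limma adjusted p = 0.959).

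A search for features that keep a constant ratio to a CUT, set up after values were seen, showed how far CUTs move together with other noncoding annotations. Of 494 CUTs with a mean of at least 0.02 reads per nucleotide, 40 had a feature whose log2 ratio to the CUT had an SD under 0.1 over all libraries. For 39 of them that feature was within 5 rows in the table, and these partners were XUTs (Xrn1-sensitive transcripts) for 31 CUTs and NUTs (Nrd1-unterminated transcripts) for 11. CUT606 and XUT1235 kept a ratio with an SD of 0.00295, and CUT268 and XUT0665 one with an SD of 0.0089. The 2 rows of such a pair thus moved together, though not always at the same level: XUT0816 stood at 1.69 to 2.06 times CUT376. Whether such pairs share reads was not tested. No CUT named below by the size of its change belongs to these pairs.

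In wild type without drug, glucose loss lowered more CUTs than it raised as the values were deposited, but not when they were scaled to protein-coding genes or snoRNAs. The comparison asks what 16 min of starvation does to these RNAs. At a Benjamini-Hochberg adjusted p under 0.05 in limma, 58 of 904 CUTs were higher and 175 were lower, and the median of all 904 log2 changes was -0.28. Over all tested features 10% rose and 33.5% fell, with a median of -0.27. Of the 302 CUTs in the upper of 3 equal bands by mean level 10.3% rose and 32.8% fell, with a median of -0.38. SUTs (stable unannotated transcripts), XUTs and NUTs had medians of -0.04, -0.07 and -0.11, and mRNAs -0.42. With scaling to protein-coding genes, which moves the median of all features by 0.28, 118 CUTs rose and 114 fell. With scaling to snoRNAs, which moves it by 0.31, 71 rose and 36 fell. Median snoRNA levels differed between libraries of a group, at 6.0 and 8.1 reads per nucleotide in starved wild type and 9.83 and 7.92 in glucose. The part of this spread in the counts scaled to snoRNAs was not tested.

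CUT006 had the largest rise. It had 0.126 and 0.0804 reads per nucleotide in starved wild type, against 0.00632 and 0.0140 in wild type in glucose, so that the groups lay far apart (log2 change 2.98 ± 0.28; limma adjusted p = 2.83e-06). It is listed on chromosome II between UBP13 (93639 to 95882), a ubiquitin protease gene, and SEF1 (96669 to 100115), a putative transcription factor gene, which changed by -0.29 ± 0.10 and -0.52 ± 0.15. CUT471 had 0.0374 and 0.0725 in starved cells, against 0.0107 and 0.00237 in glucose (2.59 ± 0.40; limma adjusted p = 0.000171), between GLE1 and YCX1 on chromosome IV. CUT120 had 0.0252 and 0.0129 in starved cells and was listed at 0 in both glucose libraries.

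CUT875 and CUT553 rose beside ORFs that rose too. CUT875 had 0.0574 and 0.0487 reads per nucleotide in starved wild type, against 0.00386 and 0.0103 in glucose (2.47 ± 0.30; limma adjusted p = 2.9e-05). The next ORF on chromosome XV, the mitochondrial aldehyde dehydrogenase gene ALD4 (1039840 to 1041399), changed by 2.34 ± 0.15. CUT553 had 0.350 and 0.246, against 0.0568 and 0.0604 (2.25 ± 0.34; limma adjusted p = 0.00015), next to GIP2, a regulatory subunit gene of the Glc7 phosphatase, which changed by 2.79 ± 0.21.

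Among falling CUTs, CUT627 had 0.00252 and 0.00549 reads per nucleotide in starved wild type, against 0.0634 and 0.0565 in glucose (-3.08 ± 0.46; limma adjusted p = 0.000125). It is listed on chromosome VII between the histidine permease gene HIP1 and the glyceraldehyde-3-phosphate dehydrogenase gene TDH3, which changed by -0.67 ± 0.10 and -0.47 ± 0.09. CUT716 had 0.00369 and 0.00503, against 0.0513 and 0.0348 (-2.53 ± 0.36; limma adjusted p = 8.75e-05), next to the aldolase gene FBA1 on chromosome XI. CUT070, between CDC37 and STB3, had 0.00218 and 0.00713, against 0.0314 and 0.0622 (-2.60 ± 0.37; limma adjusted p = 9.78e-05). CUT150 had 0.0138 and 0.0131, against 0.0789 and 0.0708 (-2.20 ± 0.23; limma adjusted p = 8.76e-06), with the sterol biosynthesis gene ERG25, which changed by -1.20 ± 0.09, as a flanking ORF. The snoRNA snR48 is listed 1 row from CUT150 and was the feature that tracked it closest, at an SD of the log2 ratio of 0.445. CUT538 had 0 and 0.0150, against 0.0781 and 0.0604 (-3.13 ± 0.81; limma adjusted p = 0.00694), and its call was lost without replicate 1 of starved wild type (limma adjusted p = 0.0917). Without replicate 2 of starved wild type, 38 CUTs rose and 115 fell.

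**Figure D2:**
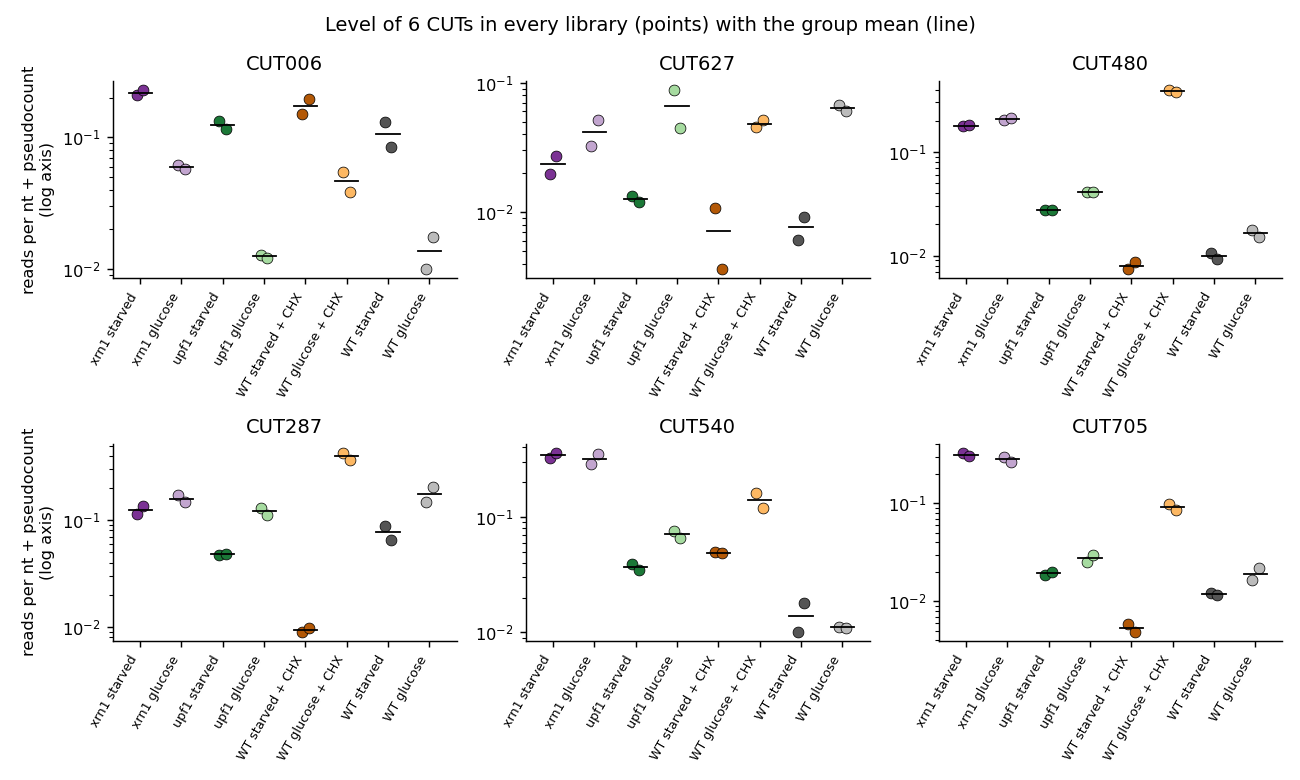
Level of CUT006, CUT627, CUT480, CUT287, CUT540 and CUT705 in each library, as reads per nucleotide plus the pseudocount on log axes, with points for libraries and a line at the group mean. These 6 were picked after their values were seen; CUT006 is high in all starved groups, CUT627 is low in starved wild type with and without drug, and CUT480 is highest with cycloheximide in glucose, at 0.392 and 0.374.

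The ORF beside a CUT often passed in the same direction, an overlap counted after values were seen. Of the 58 CUTs that rose, 36 (62.1%) had a flanking ORF that rose, against 167 of the other 846 (19.7%). Of the 175 that fell, 149 (85.1%) had a flanking ORF that fell, against 532 of the other 729 (73.0%).

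CUTs of middle and upper level that are listed between converging genes fell on glucose loss more often than other CUTs, in 50% and 57.4% of cases. Those of lower level did not, at 7.14%. This split by the direction of the flanking ORFs was also made after values were seen. It rests on row order, and without CUT coordinates an overlap of a CUT with a listed ORF could not be seen. Of all 925 CUTs, 85 (9.19%) were listed between ORFs that point towards each other (convergent). Another 284 (30.7%) were listed between ORFs that point away from each other (divergent) and 556 (60.1%) between ORFs that point the same way (tandem). Of neighbouring ORF pairs, 25.9% are convergent, 26.0% divergent and 48.2% tandem, and a CUT is listed in 5.17% of convergent pairs, 15.2% of divergent pairs and 17.5% of tandem pairs. In starved wild type, 39 of 83 tested convergent CUTs (47.0%) fell and 1 rose, with a median log2 change of -0.73. Among divergent CUTs 44 of 280 (15.7%) fell, with a median of -0.24, and among tandem CUTs 92 of 541 (17.0%) fell, with a median of -0.26. CUT627, CUT716 and CUT070 are convergent.

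Convergent CUTs were also more abundant, with a median level of 0.0427 reads per nucleotide, against 0.0235 for divergent and 0.0195 for tandem CUTs. By the same 3 bands of mean level, 32.8% of upper, 15.0% of middle and 10.3% of lower CUTs fell. The bands rest on the mean over all 16 libraries, those of starved wild type among them, so they do not separate level from this response. In the upper band 27 of 47 convergent CUTs (57.4%) fell, against 25 of 102 divergent (24.5%) and 47 of 151 tandem CUTs (31.1%). In the middle band, 11 of 22 (50%) fell, against 10.5% and 13.0%. In the lower band the order did not hold, since 1 of 14 convergent CUTs (7.14%) fell, with a median of -0.19, against 10.8% of divergent and 10.2% of tandem CUTs, with medians of -0.36 and -0.32. The higher of the 2 flanking ORFs had a median change of -0.50 for convergent, -0.40 for divergent and -0.50 for tandem CUTs. Its median level was 1.62 reads per nucleotide beside convergent CUTs, against 0.994 beside divergent and 1.04 beside tandem CUTs. After scaling to protein-coding genes 27.7% of convergent CUTs fell, with a median of -0.55, against 11.1% of all others, with a median of -0.03. After scaling to snoRNAs 9.64% fell, with a median of -0.44, against 3.41% of all others, whose median was then 0.01. Reads from the ends of converging ORFs could not be separated from those of a CUT listed between them, and their part in these values was not tested.

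**Figure D3:**
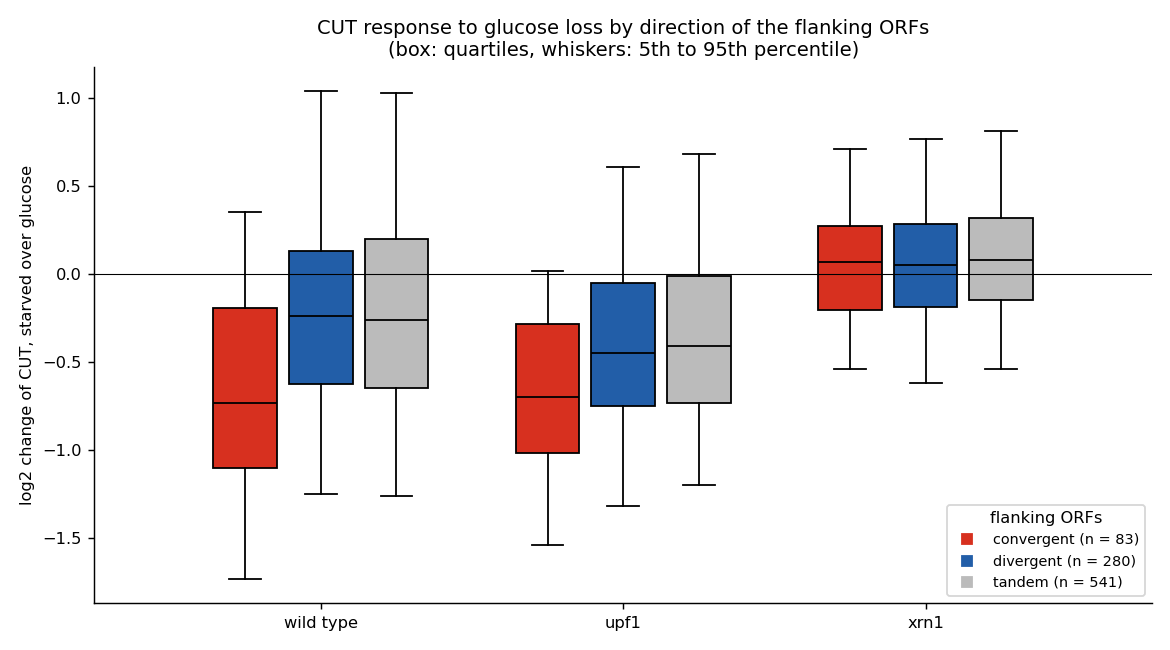
Log2 change of 904 CUTs, starved over glucose, in wild type, upf1 and xrn1 cells, by the direction of the ORFs listed on either side (boxes: quartiles and median; whiskers: 5th to 95th percentile). Convergent CUTs lie lowest in wild type and upf1, with medians of -0.73 and -0.70, and level with the others in xrn1, with a median of 0.07.

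Cycloheximide raised most CUTs in glucose in the deposited scaling and relative to snoRNAs, as it did most features, but not relative to protein-coding genes. In wild type in glucose, 688 CUTs were higher with the drug and 4 lower, with a median log2 change of 1.44. Of all tested features 91.2% were higher and 0.836% lower, with a median of 1.94, and SUTs, XUTs, NUTs and mRNAs had medians of 2.10, 2.05, 1.78 and 2.05. Scaling to protein-coding genes, which moves the median of all features by -1.84, left 92 CUTs higher and 177 lower. Scaling to snoRNAs, which moves it by 0.30, left 751 higher and 2 lower. Every library with the drug carries the other header code.

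CUT480 led the rise. It had 0.392 and 0.374 reads per nucleotide with cycloheximide in glucose, against 0.0141 and 0.0114 without (log2 change 4.56 ± 0.16; limma adjusted p = 2.98e-10), and is listed on chromosome IV between the glucose sensor gene RGT2 and ARF2, which changed by 2.41 ± 0.12 and 1.04 ± 0.10. CUT493, between the transporter gene SNQ2 and RPL4B, had 0.0887 and 0.115, against 0.00214 and 0.00553 (3.85 ± 0.31). CUT540, between the cell wall mannoprotein gene FIT1 and the glycerol transporter gene STL1, had 0.159 and 0.115, against 0.00751 and 0.00739 (3.65 ± 0.24). CUT554 and CUT429 changed by 3.61 ± 0.19 and 3.56 ± 0.47, and all 5 kept their calls whichever library was left out. The 4 CUTs that fell were all sparse: CUT523, CUT763 and CUT269 changed by -1.30 ± 0.47, -1.15 ± 0.39 and -0.73 ± 0.28, and CUT034 was listed at 0 in both drug libraries, against 0.00427 and 0.00712. Without replicate 2 of wild type in glucose CUT034, CUT523 and CUT763 lost their calls (limma adjusted p = 0.143, 0.138 and 0.054), and without drug replicate 1 they did too (0.0848, 0.17 and 0.193), CUT034 also without drug replicate 2 (0.0842). CUT269 lost its call without replicate 1 of wild type in glucose (limma adjusted p = 0.129) or drug replicate 2 (0.0842).

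In starved wild type the drug raised more CUTs than it lowered in the deposited scaling, a balance that turned relative to protein-coding genes. With cycloheximide 233 were higher and 97 lower, with a median of 0.18, whereas 65.8% of all tested features were higher and 8.31% lower, with a median of 1.03. SUTs and XUTs had medians of 1.19 and 1.01. Relative to protein-coding genes (median shift -1.05) 50 CUTs were higher and 359 lower, and relative to snoRNAs (median shift 0.22) 281 and 76. These 2 libraries are the shallowest.

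CUT757 had 0.309 and 0.285 reads per nucleotide in starved cells with the drug, against 0.0248 and 0.0268 in starved cells without (3.35 ± 0.27; limma adjusted p = 1.38e-07), before YML131W on chromosome XIII, which changed by 4.21 ± 0.12. CUT501, between SHU2 and PET100, had 0.0800 and 0.0852, against 0.00547 and 0.00834 (3.05 ± 0.26). CUT511, CUT553 and CUT426 changed by 3.02 ± 0.60, 2.68 ± 0.34 and 2.67 ± 0.26. The opposite was seen for CUT287, listed between the ribosomal protein gene RPS1B and MFT1, a THO complex gene, on chromosome XIII. It had 0.00531 and 0.00612 with the drug, against 0.0848 and 0.0616 without (-3.02 ± 0.20; limma adjusted p = 2.6e-08), while RPS1B changed by -1.10 ± 0.07 and MFT1 by 1.69 ± 0.21. CUT316 and CUT797 changed by -2.31 ± 0.41 and -1.87 ± 0.34. CUT458 and CUT641 were listed at 0 in both starved libraries with the drug, against 0.0124 and 0.0135, and 0.0130 and 0.00622, in starved cells without.

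The drug effect itself differed between starved and glucose-grown cells, by the interaction term, for 486 CUTs: it was larger in starvation for 6 and smaller for 480 (median -1.22). Of all tested features it was larger for 2.06% and smaller for 60.9% (median -0.88). Relative to protein-coding genes it was larger for 25 CUTs and smaller for 166, and relative to snoRNAs for 5 and 467. CUT480 showed the most negative term (-4.88 ± 0.22; limma adjusted p = 5.94e-09), since with the drug it stood at 0.00374 and 0.00500 in starved cells, against 0.392 and 0.374 in glucose. CUT287 followed at -4.22 ± 0.28 (limma adjusted p = 7.33e-08), with 0.00531 and 0.00612 in starved cells with the drug and 0.425 and 0.359 with the drug in glucose.

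Loss of Upf1 raised 19.4% of CUTs in glucose and larger shares of the other noncoding classes, differences between classes that were not tested. In upf1 cells in glucose 175 CUTs were higher and 15 lower than in wild type in glucose, with a median of 0.20. Of all tested features 32.0% were higher and 9.96% lower, with a median of 0.18. The shares of higher features were 68.1% for SUTs, 62.3% for XUTs, 43.2% for NUTs and 20.7% for mRNAs, with medians of 1.13, 1.08, 0.54 and -0.08. In the upper band of CUT levels (a mean above 0.0365 reads per nucleotide) 32.8% of CUTs were higher, with a median of 0.31. Of XUTs in the same range 74.4% were higher, with a median of 1.32. In the middle band the shares were 20.9% of CUTs and 51.9% of XUTs. The bands rest on the mean over all 16 libraries, those of upf1 among them, so they do not separate level from this response. Library medians in wild type in glucose were 0.0107 and 0.0101 reads per nucleotide for CUTs and 0.0110 and 0.0107 for XUTs.

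The CUTs that keep a constant ratio to an XUT or NUT were part of this. Of the 31 tied to an XUT, 12 were higher in upf1 cells in glucose, with a median of 0.56, and of the 8 tied to a NUT alone 5 were, with a median of 0.85. Of the 455 others at a mean of at least 0.02, 128 were higher and 10 lower, with a median of 0.29.

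CUT540 had 0.0722 and 0.0625 reads per nucleotide in upf1 cells in glucose, against 0.00751 and 0.00739 in wild type in glucose (2.67 ± 0.24; limma adjusted p = 1.9e-06), and its neighbours FIT1 and STL1 changed by 1.02 ± 0.16 and -0.23 ± 0.18. CUT120 had 0.0176 and 0.0206 and was listed at 0 in wild type. CUT388, between GAC1 and SYC1, had 0.0498 and 0.0393, against 0.00515 and 0.00440 (2.51 ± 0.29; limma adjusted p = 1.7e-05). CUT185 and CUT493 changed by 2.50 ± 0.24 and 2.48 ± 0.31. CUT625 was listed at 0 in both upf1 libraries in glucose, against 0.0135 and 0.0199 in wild type in glucose. The other falls, of CUT788, CUT675, CUT772 and CUT112 (-1.68 ± 0.53 to -1.22 ± 0.41), were lost without replicate 1 of wild type in glucose, with limma adjusted p of 0.0843, 0.15, 0.317 and 0.131, and without 2 or 3 of the other 3 libraries.

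Among starved cells, CUTs higher in upf1 outnumbered those lower, a balance that turned with scaling to snoRNAs: 86 CUTs were higher and 21 lower in upf1 than in wild type, with a median of 0.12, and 19.1% and 15.9% of all tested features, with a median of 0.02. With that scaling (median shift -0.39) 28 were higher and 72 lower. The starved upf1 libraries had median snoRNA levels of 8.31 and 14.8 reads per nucleotide, against 6.0 to 9.83 in the other 14, so that replicate 2 stands apart. Its part in the values scaled to snoRNAs, here and for starvation in upf1, was not tested. CUT546, between RML2 and the seripauperin gene PAU2 on chromosome V, had 0.0919 and 0.0728 reads per nucleotide in starved upf1 cells, against 0.0140 and 0.0121 in starved wild type (2.36 ± 0.15; limma adjusted p = 7.56e-07). CUT256 changed by 2.27 ± 0.26, and the calls of CUT392 (2.11 ± 0.56), CUT217 (-2.12 ± 0.57), CUT099 (-1.43 ± 0.46) and CUT289 (-1.30 ± 0.36) did not survive leaving out upf1 replicate 2, or upf1 replicate 1 for CUT289 (limma adjusted p = 0.0556 to 0.288), nor leaving out wild-type replicate 1 (CUT217 and CUT099) or 2 (CUT392, CUT099 and CUT289; 0.062 to 0.105). The total was 67 without replicate 1 of either group and 62 without upf1 replicate 2.

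Most CUTs higher without Upf1 in starvation were also higher without it in glucose, and the 2 comparisons share no library; following these sets into other comparisons was chosen after values were seen. Of the 175, 71 were higher and 0 lower in starved upf1 cells, with a median of 0.59, against 15 higher and 21 lower of the other 729, with a median of 0.03. The 71 are 40.6% of the 175 and 82.6% of the 86. Relative to protein-coding genes 103 of the 175 were higher and 0 lower, against 55 and 23 of the other 729. Relative to snoRNAs 25 of the 175 were higher and 2 lower, against 3 and 70 of the others. With cycloheximide in starvation, 94 of the 175 were higher and 6 lower (median 0.72), against 139 and 91 of the others (median 0.07). With scaling to protein-coding genes these became 27 and 54, against 23 and 305.

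Loss of Xrn1 raised most CUTs in the deposited scaling and relative to snoRNAs, as it did most features, but not relative to protein-coding genes. In xrn1 cells in glucose 661 were higher and 7 lower than in wild type in glucose, with a median of 1.43, and 90.5% and 0.483% of all tested features, with a median of 2.04. SUTs, XUTs, NUTs and mRNAs had medians of 2.62, 2.54, 1.86 and 2.06. Scaling to protein-coding genes (median shift -1.88) left 125 CUTs higher and 197 lower, and scaling to snoRNAs (median shift 0.06) 664 and 3. In starvation 740 were higher and 1 lower (median 1.80), against 93.1% and 0.258% of all tested features (median 2.33). These became 128 and 182 CUTs when scaled to protein-coding genes, and 644 and 4 when scaled to snoRNAs.

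**Figure D4:**
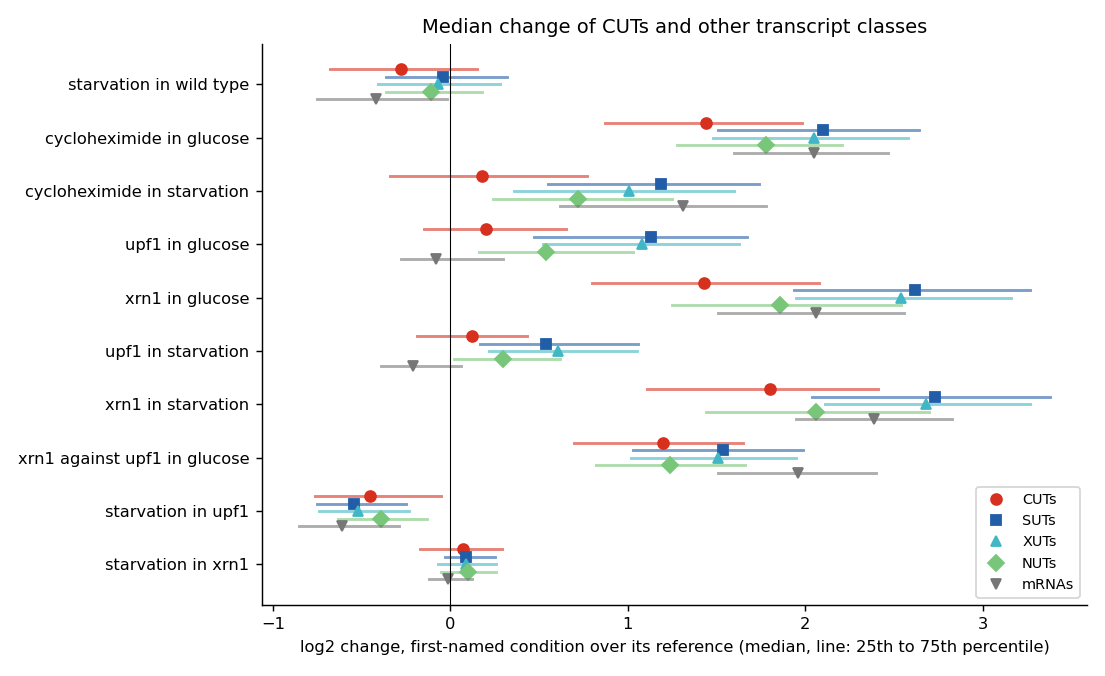
Median log2 change of each transcript class in 10 comparisons, first-named condition over its reference, with a line from the 25th to the 75th percentile. CUTs (circles) lie below SUTs and XUTs for cycloheximide and for loss of Upf1 or Xrn1, for example at 0.20 against 1.13 and 1.08 for loss of Upf1 in glucose.

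CUT540 again rose most, with 0.283 and 0.344 reads per nucleotide in xrn1 cells in glucose, against 0.00751 and 0.00739 in wild type in glucose (4.83 ± 0.24; limma adjusted p = 5.43e-10). This comparison, that of upf1 in glucose and that of cycloheximide in glucose share the wild-type libraries in glucose without drug. CUT471 had 0.221 and 0.174, against 0.0107 and 0.00237 (4.43 ± 0.40). CUT502, between the splicing factor gene SLU7 and VTC5, had 0.224 and 0.201, against 0.00422 and 0.0106 (4.35 ± 0.27). CUT493 and CUT423 changed by 4.18 ± 0.31 and 4.12 ± 0.30. Among the 7 that fell, CUT542 had 0.0271 and 0.0302, against 0.0619 and 0.0484 (-0.86 ± 0.21; limma adjusted p = 0.00146), between RMD6 and DLD3 on chromosome V, which changed by 3.09 ± 0.15 and 0.73 ± 0.12. CUT538, CUT625, CUT509 and CUT798 changed by -2.39 ± 0.81, -1.59 ± 0.54, -0.75 ± 0.26 and -0.72 ± 0.29. Each of the 4 lost its call without xrn1 replicate 1 (2 for CUT509) and without wild-type replicate 1 (CUT538 and CUT798) or 2 (CUT625 and CUT509), with limma adjusted p of 0.0591 to 0.267.

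In starvation CUT705 had 0.326 and 0.298 reads per nucleotide in xrn1 cells, against 0.00849 and 0.00799 in wild type (4.73 ± 0.19; limma adjusted p = 6.88e-11). It is listed on chromosome XI between the aminopeptidase gene APE2 and the ribosomal protein gene RPS27A, which changed by 2.50 ± 0.11 and 4.30 ± 0.08. CUT392 had 0.412 and 0.476, against 0.0177 and 0 (5.66 ± 0.56; limma adjusted p = 4.02e-07), and CUT450 changed by 4.73 ± 0.64. The only CUT that fell, CUT677, changed by -0.50 ± 0.21 and lost its call without replicate 2 of starved wild type (limma adjusted p = 0.168) or of xrn1 (0.427).

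Set against upf1 cells, xrn1 cells in glucose had 631 CUTs higher and 5 lower, a direction that turned relative to protein-coding genes. The median was 1.20, and 86.4% and 0.517% of all tested features were higher and lower, with a median of 1.65. With that scaling (median shift -1.83) 19 were higher and 235 lower, whereas relative to snoRNAs (median shift -0.02) 607 were higher and 1 lower. CUT229, next to the aminopeptidase gene APE1, had 0.439 and 0.405 in xrn1, against 0.0233 and 0.0173 in upf1 (4.16 ± 0.50; limma adjusted p = 3.5e-06). CUT705 had 0.294 and 0.264, against 0.0217 and 0.0262 (3.36 ± 0.19), and CUT450 changed by 3.21 ± 0.64, its call ending when scaled to protein-coding genes (1.42). CUT542 changed by -0.76 ± 0.21. CUT566 (-0.70 ± 0.27) and CUT509 (-0.60 ± 0.26) lost their calls without upf1 replicate 1 (limma adjusted p = 0.207 and 0.223), CUT566 also without either xrn1 library (0.104 and 0.0553) and CUT509 without xrn1 replicate 2 (0.274).

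Glucose loss without Upf1 lowered more CUTs than it raised, except relative to protein-coding genes. In upf1 cells 30 CUTs were higher and 227 lower, the median being -0.45, and 4.29% of all tested features rose and 50.8% fell, with a median of -0.54. After scaling to protein-coding genes (median shift 0.51) 78 rose and 52 fell. CUT006 had 0.129 and 0.111 reads per nucleotide in starved upf1 cells, against 0.00911 and 0.00856 in upf1 cells in glucose (3.31 ± 0.28; limma adjusted p = 1.32e-06). CUT764, before the hexose transporter gene HXT2 on chromosome XIII, changed by 2.53 ± 0.29 while HXT2 changed by 3.02 ± 0.10, and CUT772, after ISF1, changed by 2.28 ± 0.45 while ISF1 changed by 5.56 ± 0.22. CUT716, CUT314 and CUT627 changed by -3.01 ± 0.36, -2.89 ± 0.39 and -2.32 ± 0.46. The total of 257 became 136 without replicate 1 of upf1 in glucose, and 164 and 169 without starved upf1 replicates 1 and 2.

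Without Xrn1 few CUTs responded. On glucose loss 16 rose and 3 fell in xrn1 cells by limma, with a median of 0.07, and 2.80% of all tested features rose and 0.233% fell, with a median of 0.03. Relative to snoRNAs 3 rose and 2 fell. CUT772 had 0.0961 and 0.0868 reads per nucleotide in starved xrn1 cells, against 0.00506 and 0.0249 in xrn1 cells in glucose (2.59 ± 0.45; limma adjusted p = 0.0063), though its call was lost without starved replicate 1 (0.0658) or 2 (0.0502). CUT006 had 0.205 and 0.225, against 0.0584 and 0.0540 (1.87 ± 0.28; limma adjusted p = 0.00184). CUT583 had 0.0520 and 0.0568, against 0.0129 and 0.0160 (1.69 ± 0.23; limma adjusted p = 0.000973), between the zinc transporter gene ZRT1 and FZF1 on chromosome VII, which changed by -0.03 ± 0.37 and -0.08 ± 0.14. CUT677 (-1.20 ± 0.21), CUT188 (-1.35 ± 0.29) and CUT567 (-0.56 ± 0.13) fell, and all 3 calls were lost without xrn1 replicate 2 of either condition (limma adjusted p = 0.102 to 0.297), those of CUT188 and CUT567 also without xrn1 replicate 1 in glucose (0.118 and 0.172) and that of CUT567 without starved replicate 1 (0.0898). The total of 19 became 6 and 4 without xrn1 replicates 1 and 2 in glucose, and 5 and 3 without starved replicates 1 and 2.

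Part of the CUTs raised by starvation in wild type also rose in each mutant, in comparisons that share no library with that of wild type. Of the 58, 24 rose and 2 fell in upf1 cells (median 0.67), and 12 rose and 0 fell in xrn1 cells (median 0.58), which is 20.7% of the 58 and 75% of the 16 that rose there. Of the 175 that fell in wild type, 0 rose and 113 fell in upf1 (median -0.83), and 0 rose and 3 fell in xrn1 (median -0.04). Relative to protein-coding genes these counts were 41 and 0 of the 58 in upf1, 13 and 0 of the 58 in xrn1, and for the 175 1 and 39 in upf1 and 1 and 3 in xrn1. With scaling to snoRNAs they were 20 and 3, 3 and 0, 0 and 117, and 0 and 2. Of convergent CUTs, 31 of 83 (37.3%) fell in upf1 with a median of -0.70, against 26.4% of divergent and 22.6% of tandem CUTs, and 2 rose and 0 fell in xrn1. By band of mean level, 51.1% of upper convergent CUTs fell in upf1, against 42.2% of divergent and 37.7% of tandem CUTs. In the middle band 31.8% fell, against 23.2% and 23.9%, and in the lower band 0 of 14, against 10.8% and 10.2%.

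**Figure D5:**
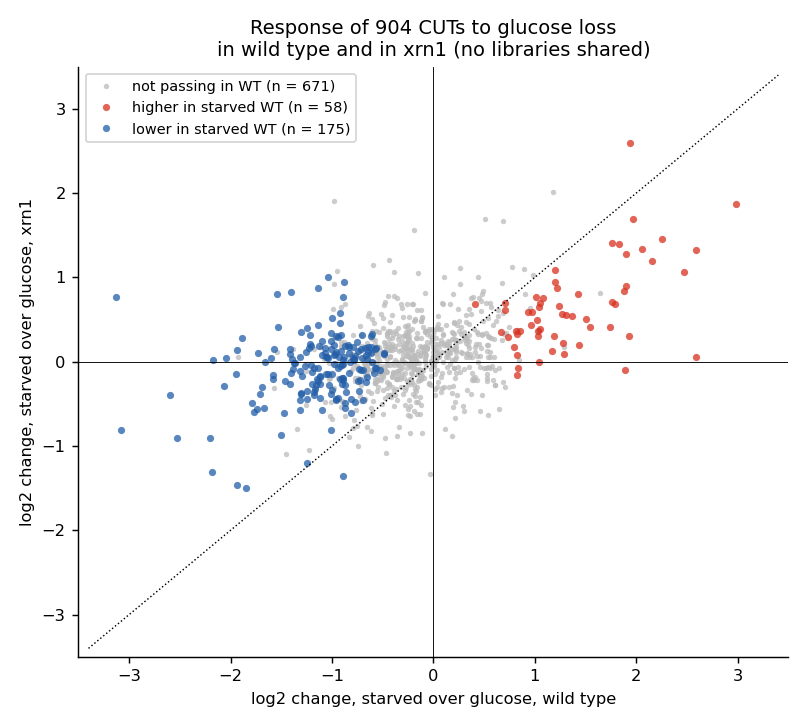
Log2 change on glucose loss of 904 CUTs in wild type (horizontal) and in xrn1 cells (vertical), coloured by the wild-type call; the dotted line marks equal change. The 58 CUTs higher in starved wild type lie mostly above 0 in xrn1, with a median of 0.58, and the 175 lower in starved wild type spread about 0, with a median of -0.04.

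By the interaction term, 74 CUTs differed in their response to glucose loss between xrn1 and wild type. In the deposited scaling it was higher in xrn1 for 65 and lower for 9 (median 0.32), a balance lost relative to protein-coding genes and snoRNAs. Of all tested features it was higher for 20.3% and lower for 3.39% (median 0.31). With scaling to protein-coding genes 36 were higher and 38 lower, and with scaling to snoRNAs 0 and 6. Of convergent CUTs, 18 of 83 (21.7%) were higher in the deposited scaling, against 7.14% of divergent and 4.99% of tandem CUTs. In the upper band of mean level these shares were 25.5%, 12.7% and 11.3%, and in the middle band 27.3%, 5.26% and 1.09%. In the lower band they were 0 of 14, 2.41% and 3.88%. This term uses the same wild-type libraries in which convergent CUTs were seen to fall, so it is no separate support for that split. Starvation in xrn1 had medians of 0.07, 0.05 and 0.08 for convergent, divergent and tandem CUTs. The total of 74 became 40 to 44 without replicate 2 of wild type in glucose, replicate 2 of xrn1 in glucose, or either starved xrn1 library.

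CUT538 had the largest positive term (3.90 ± 1.15; limma adjusted p = 0.0268), which lost its call without any of 6 of the 8 libraries (0.0581 to 0.104), and CUT120 the most negative (-2.53 ± 0.56; limma adjusted p = 0.00596). CUT120 had 0.0329 and 0.0806 reads per nucleotide in starved xrn1 cells and 0.0657 and 0.0376 in xrn1 cells in glucose, groups that overlap, whereas in wild type it was seen only in the starved libraries.

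The response differed between upf1 and wild type for 10 CUTs, higher for 2 and lower for 8 (median -0.14), and for 0.0948% and 4.81% of all tested features (median -0.20). Relative to protein-coding genes 9 were higher and 8 lower, and relative to snoRNAs, on which starved upf1 replicate 2 stands apart, 2 and 50. The total became 5 without starved wild-type replicate 1 or either starved upf1 library, and 3 without upf1 replicate 1 in glucose. CUT120 (-2.79 ± 0.56; limma adjusted p = 0.0147), at 0.0176 and 0.0146 in starved upf1 cells and 0.0176 and 0.0206 in upf1 cells in glucose, was among the 8, and so was CUT217 (-3.38 ± 0.81; limma adjusted p = 0.0319). Their calls did not survive leaving out starved wild-type replicate 1 (0.0727 and 0.115), upf1 replicate 1 in glucose (0.0544 and 0.161) or starved upf1 replicate 2 (0.0633 and 0.119), and that of CUT217 was also lost without each of 3 others (0.0573 to 0.0618).

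In the deposited scaling, most genes of a list for RNA termination and decay fell with starvation in wild type and upf1, as did most mRNAs. Most of the list, like most mRNAs, rose with cycloheximide or without Xrn1. Other scalings changed this: relative to snoRNAs 2 of 33 fell in starved wild type, relative to protein-coding genes 13 of 32 fell and 3 rose in starved upf1, and that scaling also split the genes with cycloheximide and without Xrn1. This list of 33 genes held 13 of the nuclear exosome, 5 of TRAMP, 3 of Nrd1-Nab3-Sen1, 9 of decapping and 5′-to-3′ decay, and 3 of nonsense-mediated decay. In starved wild type 28 fell and 0 rose, with a median of -0.68, and 53.0% of all tested mRNAs fell and 10.7% rose, with a median of -0.42. AIR1, a TRAMP zinc knuckle protein gene, had 0.0537 and 0.0515 reads per nucleotide in starved wild type, against 0.223 and 0.211 in glucose (-1.97 ± 0.12), and TRF5, a TRAMP poly(A) polymerase gene, had 0.0265 and 0.0320, against 0.104 and 0.112 (-1.76 ± 0.15). RRP6 had 0.195 and 0.201, against 0.314 and 0.314 (-0.66 ± 0.12). After scaling to protein-coding genes 24 fell and 2 rose. In upf1 cells starvation lowered 29 of 32 and raised 0, with a median of -0.68, and lowered 69.2% and raised 5.54% of mRNAs, with a median of -0.61. In xrn1 cells 0 of 32 passed either way, with a median of -0.15, and 4.01% of mRNAs rose and 0.086% fell, with a median of -0.01. Relative to protein-coding genes 4 were lower in xrn1.

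With cycloheximide in glucose all 33 were higher, with a median of 2.16, and so were 98.8% of mRNAs, with a median of 2.05. Among the 33 were NRD1, which binds the nascent RNA (3.06 ± 0.12), and AIR2 (2.78 ± 0.16). Of the list, 13 were higher and 9 lower relative to protein-coding genes. With cycloheximide in starvation 26 were higher and 3 lower, with a median of 0.97, and 80.3% of mRNAs were higher and 10.2% lower, with a median of 1.31. MTR4, the TRAMP helicase gene, had 0.0965 and 0.0969 reads per nucleotide with the drug, against 0.261 and 0.265 without (-1.41 ± 0.10). With scaling to protein-coding genes 5 of the list were higher and 18 lower. In upf1 cells in glucose 11 of 32 were lower and 0 higher, while 18.4% of mRNAs were lower and 20.7% higher, with MTR4 at -0.72 ± 0.10 and the exosome nuclease gene DIS3 at -0.61 ± 0.12, and 26 were lower when scaled to protein-coding genes and 1 when scaled to snoRNAs. In xrn1 cells in glucose all 32 were higher, with a median of 1.94, as were 97.6% of mRNAs, with a median of 2.06. The list was led by the decapping activator gene DHH1 (2.98 ± 0.11). Of the 32, 8 were higher and 13 lower when scaled to protein-coding genes.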

How the data were processed

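The authors deposited a signal table of reads per nucleotide for each feature, in 16 library columns. Its 8 columns of group means stayed out. The tools named per the submitters' processing notes are HISAT2 2.2.0, DESeq2, featureCounts 2.0.0 and Trim Galore, with build R64 and with roles not given in the sources used here. Reads may be counted for each of several overlapping features. The scaling between libraries is not stated, though the deposited values are level on the spike-ins, with a median ratio of 1.0047 in each library.

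From these values, log2(value + 0.00364), where the pseudocount is the 5th percentile of positive values, was fitted in limma 3.58.1 (R 4.3.3) with 1 mean per group over all libraries and a trended prior (8 residual and 4.43 prior degrees of freedom). All 11606 features with a mean at or above the pseudocount were fitted, and p-values were adjusted by Benjamini-Hochberg within each of 13 comparisons, 3 of them interactions. Changes are given ± SE. Fold changes on this scale understate the change of low features. The series' design text calls the libraries biological replicates, and p-values measure only the spread between these libraries. Recovery was checked on simulated data.

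Named CUTs were the 6 highest by mean, the 5 largest rises and falls in 5 comparisons (3 in the other simple comparisons) among those passing with non-overlapping libraries, and 2 each way in each interaction. The CUTs, lists and tests were chosen with earlier results of these data known. Alternatives were a pseudocount 10 times as large or 10 times as small, a filter 10 times stricter or none, scaling to protein-coding genes or snoRNAs, a fit on only the groups compared, a block for the replicate number, each library left out and, added after the data were seen, a fit without the cycloheximide libraries and counts without CUTs tied to a neighbour. CUT sequences are not shown, since the table gives no coordinates for them.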

Additional observations from a re-analysis of the deposited data

Results flagged for a closer look

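Effects that differed between conditions, by limma's interaction terms, are collected here with no explanation weighed.

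The effect of cycloheximide differed between starved and glucose-grown wild type for 486 CUTs. The named terms, starvation over glucose, were 3.07 for CUT876 (adjusted p = 0.0277), 2.41 for CUT523 (0.00764), -4.88 for CUT480 (5.94e-09) and -4.22 for CUT287 (7.33e-08). The response to glucose loss differed between upf1 and wild type for 10 CUTs, with terms of 2.39 for CUT070 (adjusted p = 0.0221), 2.18 for CUT427 (0.0306), -3.38 for CUT217 (0.0319) and -2.79 for CUT120 (0.0147). It differed between xrn1 and wild type for 74 CUTs, with terms of 3.90 for CUT538 (adjusted p = 0.0268), 2.89 for CUT625 (0.0152), -2.53 for CUT120 (0.00596) and -1.62 for CUT764 (0.0116). Of these 12 terms, those of CUT480, CUT287, CUT523 and, for xrn1, CUT120 kept their calls whichever library was left out.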

How the results depend on the processing

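None of the 89 results on named CUTs changed sign under any alternative run. Leaving out 1 library at a time ended the call of 32 of the 89 in at least 1 case. The other alternatives ended 0 to 11 calls each, most with a pseudocount 10 times larger (11) or smaller (10), snoRNA scaling (11) or a fit on only the groups compared (9). The causes were not tested, other than that a stricter filter tests fewer CUTs and leaving out a library leaves fewer samples.

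Counts of passing CUTs that moved by over 1.5 times were as follows. With a pseudocount 10 times larger, 149 passed for starvation in wild type (233 as deposited), 61 for upf1 in starvation (107), 39 for starvation in xrn1 (19) and 4 for the interaction of starvation and upf1 (10). With one 10 times smaller, 12 passed for starvation in xrn1. With a filter 10 times stricter, 135 passed for starvation in wild type, 262 and 178 for the drug in glucose (692) and in starvation (330), 114 for upf1 in glucose (190), 270 for xrn1 in glucose (668), 286 for xrn1 in starvation (741), 268 for xrn1 against upf1 (636), 149 for starvation in upf1 (257), 10 for starvation in xrn1 and 203 for the interaction of cycloheximide and starvation (486).

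Scaled to protein-coding genes, 269 passed for cycloheximide in glucose, 322 for xrn1 in glucose, 181 for upf1 in starvation, 310 for xrn1 in starvation, 254 for xrn1 against upf1, 130 for starvation in upf1, 191 for the interaction of cycloheximide and starvation and 17 for that of starvation and upf1. Scaled to snoRNAs, 107 passed for starvation in wild type, 5 for starvation in xrn1, 52 for the interaction of starvation and upf1 and 6 for that of starvation and xrn1 (74). With the compared groups alone, 58 passed for starvation in xrn1, and 3 and 121 for the interactions of starvation with upf1 and xrn1.

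With 1 library left out, the counts ranged from 153 to 168 for starvation in wild type, 611 to 664 and 255 to 313 for cycloheximide in glucose and starvation, 131 to 151 and 62 to 72 for upf1 in glucose and starvation, and 593 to 628 and 693 to 704 for xrn1 in glucose and starvation. They ranged from 526 to 578 for xrn1 against upf1, 136 to 205 and 3 to 6 for starvation in upf1 and xrn1, and 412 to 485, 3 to 11 and 40 to 62 for the interactions of cycloheximide and starvation, starvation and upf1, and starvation and xrn1.

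With the replicate number as a block, 241, 689, 332, 197, 670, 116, 745, 638, 270, 23, 490, 12 and 85 CUTs passed in the order starvation in wild type, the drug in glucose and starvation, upf1 and xrn1 in glucose, upf1 and xrn1 in starvation, xrn1 against upf1, starvation in upf1 and xrn1, and the 3 interactions. The block ended 2 named calls, CUT772 in upf1 in glucose and CUT509 in xrn1 against upf1. Deviations of same-numbered libraries correlated at -0.086 to 0.082 between groups, so the numbers were not taken to pair samples.

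Depth limits the sparse CUTs: in starved cells with cycloheximide the pseudocount equals 3.36 and 3.88 reads per kb, and in starved upf1 cells 13.3 and 13.8.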

Other observations

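CUTs were spread over all chromosomes, from 5.18 per 100 kb on chromosome VI to 9.26 on chromosome VII, with 126 on chromosome IV and 12 on chromosome I. Counted with no limit on the SD of the log2 ratio, 87 of the 494 CUTs with a mean of at least 0.02 reads per nucleotide had their closest-tracking feature within 5 rows of the table, and 18 of them at an SD under 0.05.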
